A study of Mus musculus with 2 samples.

Results

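Polyamine metabolism was followed through 8 genes, Odc1, Amd1, Srm, Sms, Sat1, Azin1, Oaz1, and Oaz2, which were found by symbol among the 32285 genes counted in single-cell RNA sequencing of sorted epithelium of P1 mouse back skin. They were chosen because their levels differ between the cell classes of the growing hair follicle (HF), so the levels by class are a description and carry no test. The study asked how the arginine deiminase PADI4 acts in the HF, and compared 1 library labelled PADI4 WT with 1 labelled PADI4 cKO, both in batch 1. The protocol names mice with K14-Cre, which acts in Krt14-expressing epithelium, and Padi4 fl/fl, and cells carrying the Cre reporter tdTomato were sorted after the epidermis had been removed enzymatically. The alleles of the WT animals and the number of animals behind each library are not given in the labels. In each library the unit is the unique molecular identifier (UMI), 1 captured mRNA molecule, and levels are given in CPM, the UMIs of a gene per 1e6 UMIs, summed over the cells of a class.

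Polyamines (putrescine, spermidine, and spermine) are small cations that bind nucleic acids and are needed for growth and translation. ODC1 makes putrescine from ornithine, AMD1 makes the aminopropyl donor from S-adenosylmethionine, and the synthases SRM and SMS add aminopropyl groups to give spermidine and spermine. SAT1 acetylates spermidine and spermine for breakdown or export. The antizymes OAZ1 and OAZ2 bind ODC1 and send it to the proteasome, and AZIN1 resembles ODC1 and takes antizyme away from it. In skin, ODC1 is known for its high activity in the bulb of growing HFs and as a driver of epidermal tumors when overexpressed.

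The stretches upstream of Odc1, Sat1, and Amd1 are shown because these 3 genes had the widest spans between their highest and lowest class. Odc1 and Sat1 were both high in several classes where Amd1 was low. They are 120 bases each, ending just before the more upstream of the RefSeq and GENCODE starts, from the RefSeq promoter table of build GRCm38.p6, and capitals mark the GC box GGGCGG on either strand.
Odc1 (chr12:17544674-17544793, plus strand): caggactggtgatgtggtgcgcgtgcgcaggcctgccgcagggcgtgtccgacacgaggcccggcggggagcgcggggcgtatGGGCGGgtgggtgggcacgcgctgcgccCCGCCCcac
Sat1 (chrX:155216450-155216569, minus strand): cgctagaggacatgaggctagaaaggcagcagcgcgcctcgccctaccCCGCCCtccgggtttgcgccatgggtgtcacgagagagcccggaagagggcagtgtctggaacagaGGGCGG
Amd1 (chr10:40302189-40302308, minus strand): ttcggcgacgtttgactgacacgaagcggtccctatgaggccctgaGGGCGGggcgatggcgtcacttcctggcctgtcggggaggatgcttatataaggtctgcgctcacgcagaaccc
Over the full 250 bases upstream of the RefSeq start, the GC box was found 4 times for Odc1, 2 times for Sat1, and 1 time for Amd1, and at least once in 32.7% of all 32851 promoters of that table. The E box CACGTG, the CRE TGACGTCA, and TATAAA, each searched on both strands, were found in none of these 3 windows, and in 6.02%, 1.55%, and 12.4% of all promoters. Only these exact letters were searched, so variants, such as tatataa near the end of the Amd1 stretch, were not counted.

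The genes lie on 6 chromosomes of GRCm38. Odc1 spans chr12:17544794-17551505 (plus strand), Sat1 chrX:155213132-155216449 (minus), Sms chrX:157443855-157492287 (minus), Amd1 chr10:40287458-40302186 (minus), and Oaz1 chr10:80826656-80829290 (plus). Srm spans chr4:148591503-148594993 (plus), Azin1 chr15:38487427-38519266 (minus), and Oaz2 chr9:65668001-65690300 (plus). Amd1 counts are uncertain, because 98.7% of the 31-base stretches in the last 500 bases of its transcript also occur in Amd2. Amd2 was counted with 72 and 105 UMIs in the epithelial cells of the WT and cKO libraries, beside 6883 and 7389 UMIs of Amd1. The other 7 genes shared no such stretch with another counted gene. Azin1 overlaps the counted gene Gm49077.

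The files held 143938990 UMIs for the WT library and 143945294 for the library labelled PADI4 cKO, of which 8070 and 7393 cells passed the filters, with medians of 14670 and 16208 UMIs per cell and 14 barcodes in common. Padi4 itself had 97 UMIs in the WT and 88 in the cKO epithelial cells (0.763 and 0.684 CPM), and since 3′ counts can come from outside the deleted part, this does not check the labels. Cells with Xist and no Y-linked UMIs made up 26.7% of the WT epithelial cells and 99.7% of those of the cKO library, so sex and genotype cannot be told apart in a comparison of the libraries, although cells of 1 kind can be compared. Of 7982 and 7317 epithelial cells, 61.8% and 62.6% were placed by marker lists in 14 classes of at least 50 cells per library. These classes carry the names of their lists: lower proximal cup (LPC), germinative layer (GL), inner root sheath (IRS), shaft (cortex), medulla (Med), outer root sheath (ORS), upper HF (uHF), interfollicular epidermis (IFE), and sebaceous gland (SG), together with classes called by a leading gene (Sp5, Myb, Dcn, Slit3, Acta2). The lead that decides a class was within 0.05 of its limit in 676 and 629 cells. Intervals are 95% exact Poisson or binomial limits for counting error only, and 1 library per genotype leaves no replicate error and allows no test. Fewer cells of a state within a class and less RNA per cell cannot be told apart in a sum.

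Odc1, the rate-limiting enzyme of polyamine synthesis, was highest in Med-like cells and lowest in the ORS-like or IFE-like cells. In Med-like cells its level was 1029 CPM in the WT library (interval 996 to 1062; 214 cells) and 712 CPM in the cKO library (684 to 740; 193 cells). The GL-like cells followed with 358 and 289 CPM, the Dcn matrix-like cells with 335 and 298 CPM, the Sp5 progenitor-like cells with 332 and 237 CPM, and the shaft-like cells with 311 and 211 CPM. These 4 classes could not be put in order, since the values of the libraries overlapped between neighbors, but all of them lay below the Med-like cells and above the other 9 classes in both libraries. The Myb matrix-like cells reached only 61.5 and 50.2 CPM. Among the remaining 8 classes levels ran from 23.1 to 52.7 CPM in the WT and from 13.3 to 36.2 CPM in the cKO library, and only the step from Myb matrix-like to Acta2 epithelial cells was larger than the gap between the libraries.

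The span of Odc1 was wide beside that of other genes detected in all classes. Its highest class lay 44.4-fold above its lowest in the WT library and 53.6-fold in the cKO library. Over the 8297 genes with at least 10 UMIs in every class and library, the median of this ratio was 2.05 and 2.10. Of these 8297, with Odc1 included, 49 and 58 reached the ratio of Odc1. Genes nearly absent from any class are not in this set. Odc1 was chosen for its levels by class, so its place is a description. Up to 42.5% and 60.5% of the Odc1 UMIs in the lowest class could have come from free RNA, as estimated from collagen and hemoglobin genes, so the lowest levels are upper limits of what those cells expressed. The summed level of 4 melanocyte markers was also highest in the Med-like cells, at 49.0 and 48.8 CPM, with all 4 detected, against 1.44 and 1.56 CPM in the lowest classes. Their part in the Odc1 level was not tested. Of the 4 immune markers none had a UMI in the Med-like or shaft-like cells.

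**Figure D1:**
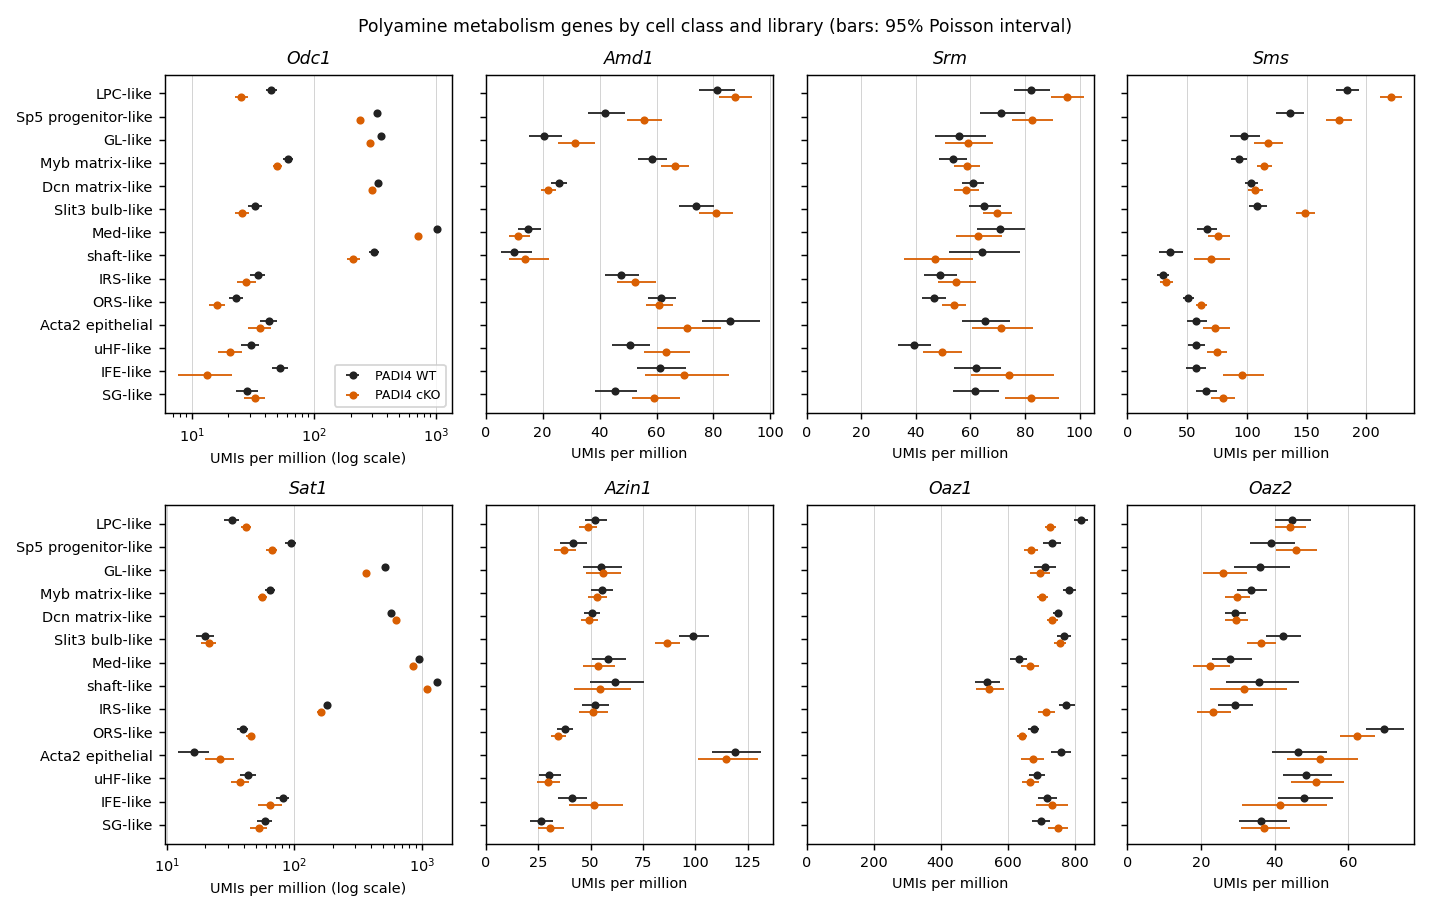
Levels of the 8 genes (CPM; log axis for Odc1 and Sat1, axes from 0 for the others) in 14 classes, black for PADI4 WT and orange for PADI4 cKO, with 95% Poisson intervals. Odc1 peaks in Med-like cells at 1029 and 712 CPM, Sat1 in shaft-like cells at 1309 and 1102 CPM, and Amd1 is lowest in these same 2 classes.

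Within a class Odc1 varied from cell to cell. The median Med-like cell held 13.5 Odc1 UMIs in the WT and 9 in the cKO library, with quartiles starting at 5 and 2 UMIs, whereas the median ORS-like cell held 0 in both. Odc1 was detected in 93.0% of the Med-like cells of the WT library and 88.1% of the cKO library, against 19.2% and 16.4% of the ORS-like cells, which had fewer UMIs per cell (medians of 10065 and 11106, against 14807 and 17243). After each cell had been thinned to 2000 UMIs, the shares were 68.7% and 58.0% in Med-like and 3.62% and 3.14% in ORS-like cells.

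Amd1, whose enzyme supplies the aminopropyl groups for both synthases, was lowest in several of the classes with high Odc1. It was highest in the LPC-like cells (81.1 and 87.5 CPM in WT and cKO), the Acta2 epithelial cells (85.8 and 70.6 CPM), and the Slit3 bulb-like cells (73.8 and 80.8 CPM). The Med-like cells had 14.8 CPM (55 UMIs) and 11.4 CPM (41 UMIs), and the shaft-like cells 9.74 CPM (15 UMIs) and 13.8 CPM (17 UMIs). The GL-like and Dcn matrix-like cells lay between, at 20.5 to 31.3 CPM. The Sp5 progenitor-like cells, also high in Odc1, had more Amd1, at 42.0 and 55.5 CPM. Reads shared with Amd2 touch every Amd1 value.

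Sms and Srm, the synthases, did not follow Odc1 either. Sms was highest in the LPC-like cells at 184 and 221 CPM, where Odc1 was at 44.9 and 25.4 CPM, and next in the Sp5 progenitor-like cells at 136 and 177 CPM. The IRS-like cells had the least, at 29.7 and 32.3 CPM, below every other class in both libraries. The level of Srm differed by 2.10-fold in the WT and 2.03-fold in the cKO library between its highest class, LPC-like (82.3 and 95.5 CPM), and its lowest, uHF-like (39.2 CPM) and shaft-like (47.1 CPM), which is close to the median gene.

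Sat1, the acetylating enzyme of breakdown, was highest in shaft-like cells. It reached 1309 CPM (1253 to 1367; 97 cells) in the WT and 1102 CPM (1044 to 1162; 69 cells) in the cKO library. The Med-like cells had 947 and 855 CPM, the Dcn matrix-like cells 575 and 631 CPM, and the GL-like cells 511 and 365 CPM. The IRS-like cells came next at 181 and 161 CPM, and the other classes were below 94 CPM in both libraries. The first 6 places of the order, down to the Sp5 progenitor-like cells with 93.2 and 66.5 CPM, were held in both libraries, and no neighbors among them overlapped. The highest class lay 80.5-fold and 51.9-fold above the lowest. Of the same 8297 genes, which leave out those nearly absent from a class, 12 and 61 reached that ratio, Sat1 included. However, free RNA could account for all of the lowest WT level (102.7%) and 71.9% of the lowest cKO level.

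Odc1 and Sat1 were high in much the same classes, with exceptions at both ends. The Sp5 progenitor-like cells had Odc1 levels near those of the GL-like and Dcn matrix-like cells (332 and 237 CPM) and low Sat1 (93.2 and 66.5 CPM), while the IRS-like cells had low Odc1 (34.6 and 28.0 CPM) and moderate Sat1. At 2000 UMIs per cell, both mRNAs were detected together in 112 of 214 Med-like cells of the WT library (52.3%) and 82 of 193 of the cKO library (42.5%). The shares were 28.9% and 21.7% in the shaft-like cells, 22.8% in the Dcn matrix-like cells of both libraries, and 16.1% and 12.3% in the GL-like cells. They were at most 3.89% in every other class of either library.

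**Figure D2:**
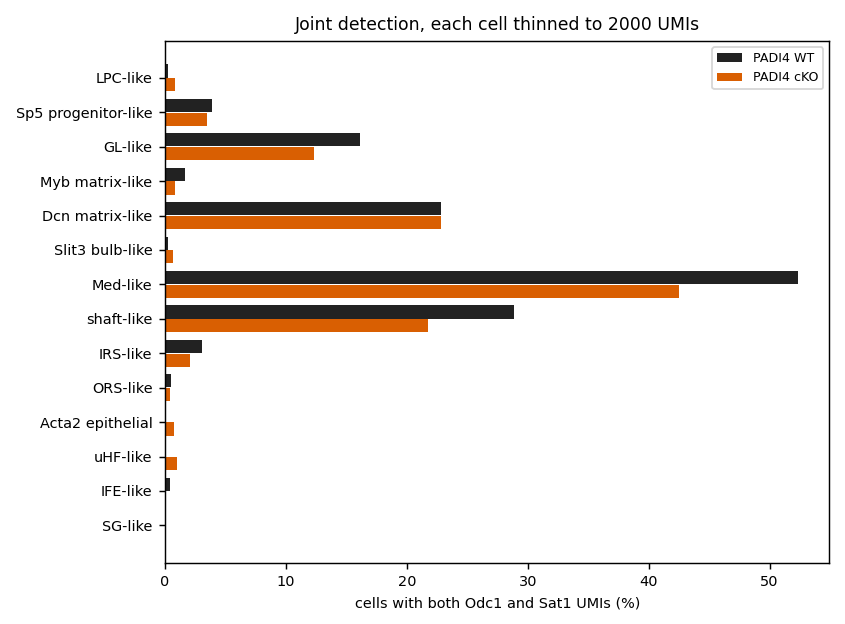
Share of cells (%) with at least 1 UMI of Odc1 and of Sat1 after thinning to 2000 UMIs per cell, by class, black for PADI4 WT and orange for PADI4 cKO. The Med-like cells lead at 52.3% and 42.5%.

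**Figure D3:**
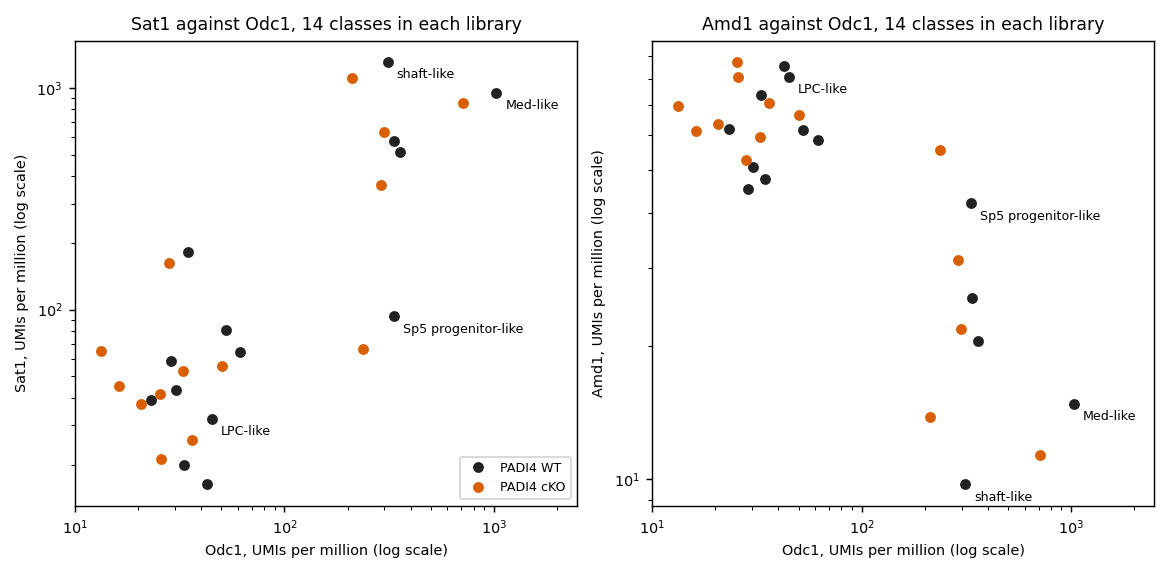
Sat1 (left) and Amd1 (right) against Odc1, in CPM on log axes, with 1 point for each of 14 classes in each library. The Med-like and shaft-like classes lie high in Odc1 and Sat1 and low in Amd1, and the Sp5 progenitor-like class is high in Odc1 and low in Sat1.

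Of the regulators, Azin1, the antizyme inhibitor, had its highest levels in 2 classes where Odc1 was low. The Acta2 epithelial cells had 119 and 115 CPM and the Slit3 bulb-like cells 99.1 and 86.5 CPM, above all other classes in both libraries, where the values ran from 26.3 to 61.7 CPM. Oaz1 was nearly level across the classes, with a highest class 1.52-fold and 1.39-fold above the lowest, a span smaller than that of most genes. Its lowest levels were in the shaft-like cells, at 539 and 545 CPM, followed by 633 CPM in the Med-like cells of the WT library. Oaz2 was highest in the ORS-like cells at 69.7 and 62.3 CPM and lowest in the Med-like cells at 28.0 and 22.5 CPM.

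From the matrix to the shaft, 2 of the 8 genes lay below -0.5 on the log2 scale in each library, namely Amd1 and Sms, beside 23.4% of all 10479 genes compared in the WT and 22.3% of 10441 in the cKO library. This comparison is among those the genes were chosen on, so nothing is read from the count. The 3 matrix gates (GL-like, Myb, and Dcn) were pooled. Amd1 had 36.2 CPM in matrix-like and 9.74 CPM in shaft-like cells of the WT library, a log2 ratio of -1.85 (-2.74 to -1.16), and 41.8 and 13.8 CPM in the cKO library, a ratio of -1.56 (-2.38 to -0.91). For Sms the log2 ratios were -1.47 (-1.89 to -1.09) and -0.67 (-1.002 to -0.366). Sat1 was the single gene above 0.5, beside 16.9% and 18.9% of all genes, with ratios of 1.73 (1.66 to 1.79) and 1.63 (1.55 to 1.72). Oaz1 was at -0.49 in the WT library, where 5 of 11 other settings took it below -0.5 (-0.51 to -0.65), and at -0.39 in the cKO library. Odc1 was at 0.35 (0.21 to 0.48) and 0.14 (-0.05 to 0.32), and at -0.01 in the WT library once cells had been thinned to 2000 UMIs.

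Against the same matrix cells, the Med-like cells differed more in Odc1. Its log2 ratio was 2.07 (2.01 to 2.13) in the WT and 1.89 (1.82 to 1.96) in the cKO library, and that of Sat1 was 1.26 and 1.27. Above 0.5 were 12.8% and 8.2% of all genes, and below -0.5 were 10.1% and 9.76%. Amd1 (-1.28 and -1.86) and Sms (-0.58 and -0.55) were again below. The summed level of 8 proliferation genes was 1501 and 1748 CPM in Med-like, 716 and 813 CPM in shaft-like, and 2020 to 2757 CPM in the matrix classes, and its part in these ratios was not tested.

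The matrix was itself divided. Odc1 was 334.8 CPM in Dcn matrix-like and 61.5 CPM in Myb matrix-like cells of the WT library, a log2 ratio of 2.44 (2.31 to 2.58), and the ratio was 2.57 (2.44 to 2.70) in the cKO library. Sat1 differed more, with ratios of 3.16 and 3.498, and Amd1 differed in the other direction, with -1.19 and -1.60. Among all genes, 4.87% and 5.21% were above 0.5 and 8.05% and 9.04% below -0.5 between these classes. The other 5 genes stayed between -0.20 and 0.19. Sat1 is among the 10 leading genes of the Dcn matrix-like class, and Odc1 among those of the Med-like class. In Med-like cells the Dcn list had the highest median score after their own, at 0.98 in the WT and 1.06 in the cKO library. Their own list was at 2.50 and 2.28.

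**Figure D4:**
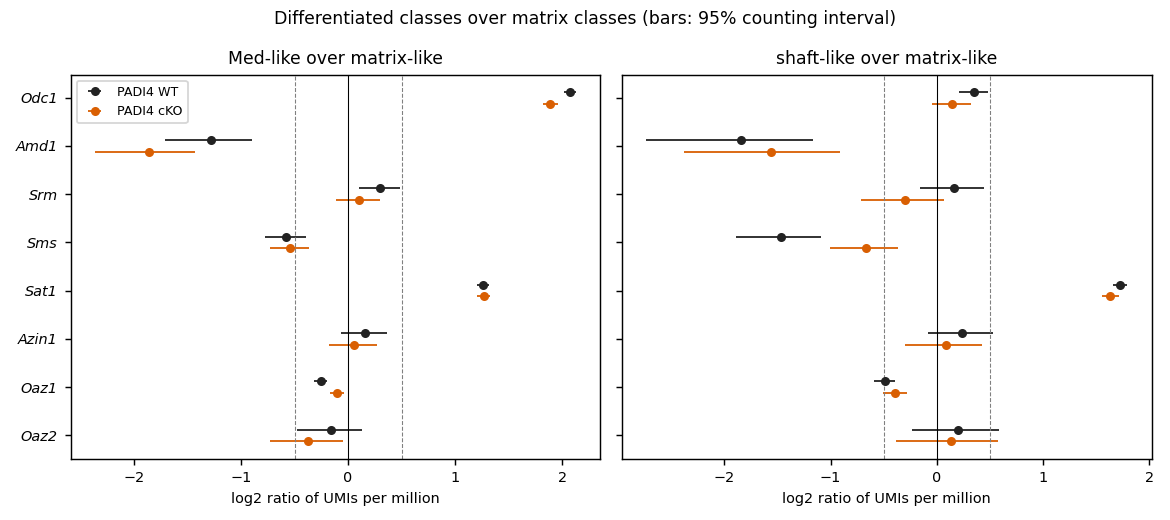
Log2 ratios of CPM in Med-like (left) and shaft-like (right) over matrix-like cells for the 8 genes, with 95% counting intervals, black for PADI4 WT and orange for PADI4 cKO, and dashed lines at 0.5 and -0.5. Odc1 stands at 2.07 and 1.89 on the left and at 0.35 and 0.14 on the right, whereas Sat1 is above 0.5 on both sides.

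Of the 35 further genes of polyamine metabolism on a list, 26 could be compared between shaft-like and matrix-like cells. In the WT library 3 were above 0.5 and 11 below -0.5, beside 16.9% and 23.4% of all genes. The median was -0.25 beside -0.04 for all genes. In the cKO library 3 were above and 8 below, beside 18.9% and 22.3% of all genes, with a median of -0.33 beside -0.02. No conclusion is drawn from these counts. Mtap, the first enzyme of the salvage of methionine from the byproduct of spermidine synthesis, was at -2.07 and -1.44. Its followers Apip (-2.003 and -0.78) and Enoph1 (-0.78 and -1.19) lay on the same side. Mat2a, which makes S-adenosylmethionine, was at -0.64 and -0.86. Oat, which interconverts ornithine, was at -1.68 and -1.04, and the arginine carrier Slc7a1 at -0.92 and -1.23. Above 0.5 in both libraries were Atp13a2, a lysosomal polyamine exporter, at 1.70 and 1.62, and Smox, which oxidizes spermine, at 1.27 and 0.63. Azin2 was at -0.62 (-1.70 to 0.18) in the WT and 0.57 (-0.17 to 1.18) in the cKO library, from 11 and 21 UMIs in the shaft-like cells.

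Of the same 26 genes, 4 in each library were above 0.5 in Med-like over matrix-like cells, beside 12.8% and 8.2% of all genes, and 4 in the WT and 2 in the cKO library were below -0.5, beside 10.1% and 9.76%. Nothing is read from these counts. Slc7a1 was 303 CPM in Med-like and 152 CPM in matrix-like cells of the WT library, and 223 and 163 CPM in the cKO library, log2 ratios of 1.00 (0.90 to 1.10) and 0.45 (0.34 to 0.56). Slc3a2, the heavy chain of amino acid exchangers, was at 0.89 and 0.61, Ass1, which joins citrulline to aspartate, at 0.95 and 0.71, and Atp13a2, also above 0.5 in shaft-like cells, at 0.71 and 0.61. Slc7a2, another carrier of arginine, lay on the other side, at -0.55 and -1.32 in Med-like and at -2.23 and -0.44 in shaft-like cells.

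Between the libraries, none of the 8 genes was past 0.5 on the log2 scale over all epithelial cells, where 5.51% of 14944 genes were. Odc1 had 147.3 CPM in the WT and 121.5 CPM in the cKO library, a log2 ratio of -0.28 (-0.31 to -0.25). Sms had 90.7 and 114.7 CPM, a ratio of 0.34 (0.30 to 0.37). Srm was at 0.14, Amd1 at 0.09, Oaz1 at -0.07, Oaz2 at -0.09, Azin1 at -0.10, and Sat1 at -0.10. The median over all genes was -0.01 and that over the 8 genes -0.08.

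Within classes, 10 of 109 pairs of gene and class were past 0.5, beside 6.09% of all 118315 gene and class pairs. Of these, 4 were above (2.63% of all pairs) and 6 below (3.46%). All 6 below were of Odc1. It was lower in the cKO library in 13 of 14 classes, with a median log2 ratio of -0.42, although in Dcn matrix-like cells its ratio of -0.17 became 0.01 with the Scanpy fold change. Among Xist-only cells Odc1 was lower in 6 of the 9 classes with enough cells. Its ratio turned from -0.35 to 0.15 in Slit3 bulb-like and from -0.30 to 0.41 in IRS-like cells, both with intervals that include 0. In these cells it was at -0.53 (-0.89 to -0.14) in LPC-like, -0.62 (-1.02 to -0.19) in ORS-like, and -0.49 (-1.16 to 0.28) in uHF-like cells. The Med-like, shaft-like, IFE-like, GL-like, and Sp5 progenitor-like classes held fewer than 50 Xist-only WT cells and were not compared. Over all cells of a class, Odc1 was at -0.82 (-1.06 to -0.58) in LPC-like and -0.56 (-0.78 to -0.34) in shaft-like cells. It was at -0.55 (-0.96 to -0.14) in uHF-like, -0.53 (-0.60 to -0.46) in Med-like, and -0.51 (-0.80 to -0.22) in ORS-like cells. In uHF-like cells a single WT cell held 18 of 136 WT UMIs, and no cKO cell held more than 5. Odc1 was detected in 21.9% of these WT and 20.3% of these cKO cells, and after thinning in 5.34% and 6.42%. In ORS-like cells a single WT cell held 20 of 234 WT UMIs, and no cKO cell held more than 4. Detection there was 19.2% and 16.4%, and after thinning 3.62% and 3.14%. The lowest Odc1 ratio was -1.95 (-2.80 to -1.27) in IFE-like cells. It rests on 176 WT and 17 cKO UMIs in 246 and 92 cells, a class in which 17.2% of all genes were past 0.5. With Leiden clusters in place of the marker lists, the Odc1 ratio was -0.18 in Med-like and -0.26 in IFE-like cells. These clusters were named by their most frequent class, which made up only 46.4% and 48.8% of their cells with a class.

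Sms was higher in the cKO library in 14 of 14 classes, but among Xist-only cells in 6 of 9. In these cells its ratio was -0.05 in IRS-like, -0.03 in SG-like, and -0.01 in ORS-like cells, and 0.05 in uHF-like cells, with intervals that include 0. Over all cells its ratio ran from 0.05 in Dcn matrix-like to 0.96 (0.46 to 1.48) in shaft-like cells, where it had 55 and 86 UMIs, and was also past 0.5 in IFE-like cells at 0.75. The other 2 pairs above were Amd1 in GL-like cells at 0.60 (0.11 to 1.12) and Sat1 in Acta2 epithelial cells at 0.67 (0.11 to 1.24). The Sat1 pair rests on 54 WT and 58 cKO UMIs, of which a single cKO cell held 23. Sat1 was detected in 18.4% of these WT cells and 18.3% of these cKO cells. Among Xist-only cells this Sat1 ratio was 0.63 (-0.11 to 1.49). Oaz1 stayed between -0.17 and 0.10 in all 14 classes.

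Sms and Sat1 are X-linked, and the libraries differ in their share of female cells. In the WT library, cells with Xist and no Y-linked UMIs had an Sms level of 98.1 CPM and cells with Y-linked UMIs and no Xist 87.7 CPM, a log2 ratio of 0.16 (0.10 to 0.22). The X-linked Sat1 was at -0.02 (-0.06 to 0.03) and Odc1 at -0.00 (-0.05 to 0.05). Of the other autosomal genes, Srm was at 0.37 (0.30 to 0.44), Amd1 at 0.28 (0.20 to 0.36), Azin1 at 0.17 (0.10 to 0.25), Oaz1 at 0.06 (0.04 to 0.08), and Oaz2 at -0.11 (-0.21 to -0.02), so differences of this size were not limited to the X chromosome. By class, Odc1 went both ways in this comparison of WT cells. It was at -0.90 (-1.60 to -0.29) in IRS-like and -0.42 (-0.82 to -0.05) in LPC-like cells. In Acta2 epithelial cells it was at 0.80 (0.23 to 1.39) and in Dcn matrix-like cells at 0.20 (0.10 to 0.30). Among Xist-only cells, 2131 in the WT and 7295 in the cKO library, Odc1 was at -0.25 (-0.29 to -0.20) and Sms at 0.23 (0.17 to 0.28), cKO over WT. Amd1 and Srm, above 0 over all epithelial cells, were at -0.11 and -0.12 in these cells.

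**Figure D5:**
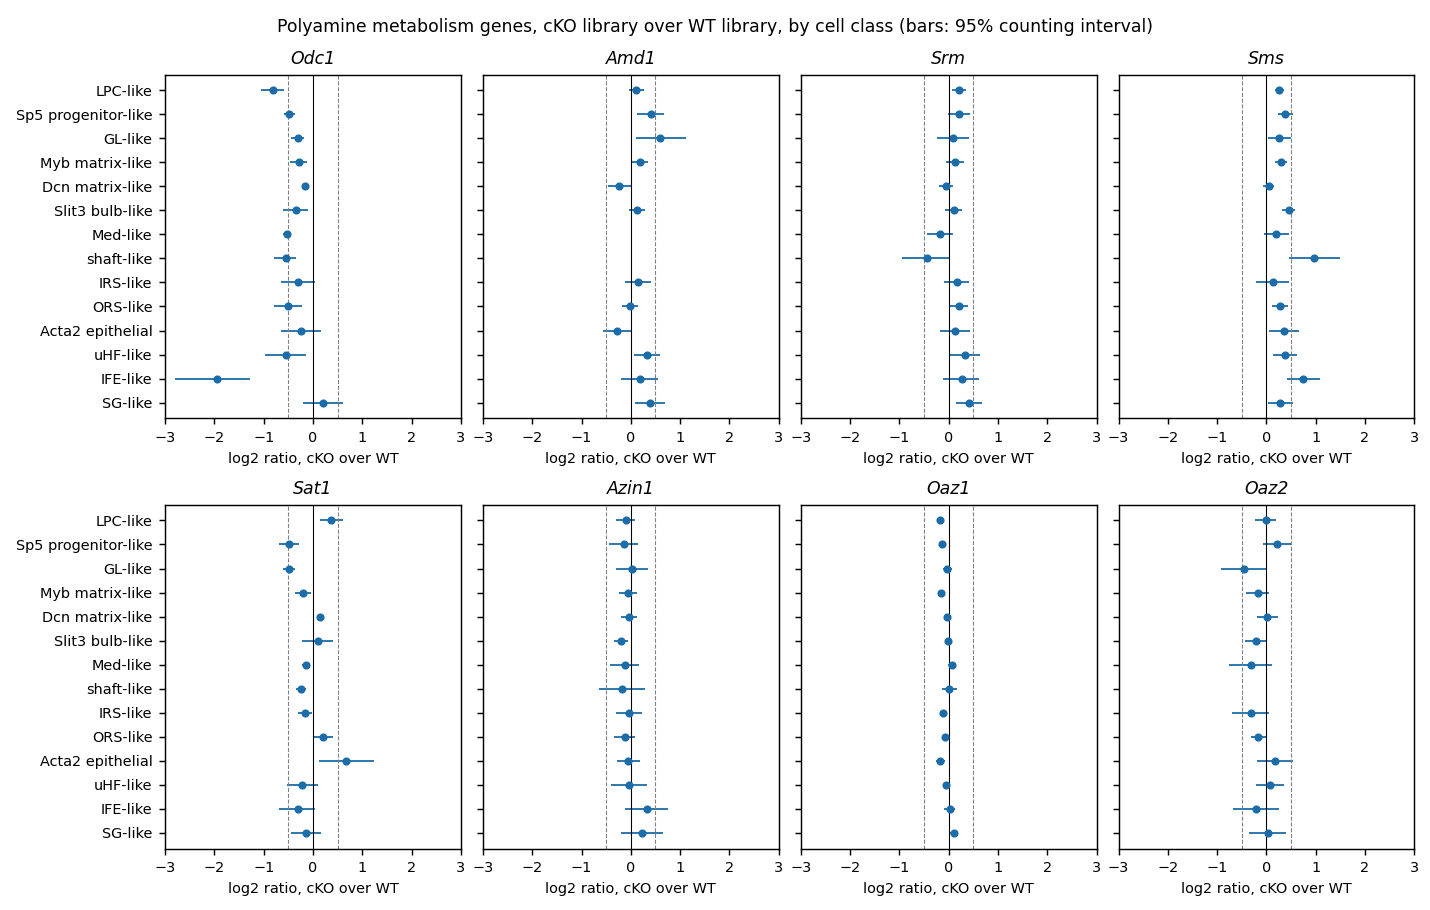
Log2 ratio of CPM, cKO over WT library, by class for each gene, with 95% counting intervals and dashed lines at 0.5 and -0.5. Odc1 lies below 0 in 13 of 14 classes and Sms above 0 in 14 of 14, or in 6 of 9 each among Xist-only cells, and genes with under 100 UMIs in a class are left out.

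Cells with at least 5 UMIs per 10000 of the mitosis genes Mki67, Top2a, Ccnb1, Cdk1, and Birc5 were set beside cells with none, in the 9 classes and libraries with 50 cells of each. Odc1 was lower in the cells with mitosis genes in the Med-like cells of the WT library (809 against 1350 CPM) and in the Dcn matrix-like cells of the same library (300.2 against 694.6 CPM), and higher in the other 7, although with intervals that include 0 in the Acta2 epithelial (-0.05 to 1.55) and SG-like cells (-0.26 to 1.18). In IFE-like cells of the WT library it was 52.5 against 15.5 CPM. Oaz1 was higher in 9 of 9, by 0.13 to 0.44 on the log2 scale, with the interval reaching below 0 in the Acta2 epithelial and SG-like cells. Cells without these UMIs were shallower, for example with medians of 13438 against 21313 UMIs in the Med-like cells, and the part of depth was not tested.

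The genes whose levels were most like those of Odc1 over the 28 values of class and library, among 14075 genes with at least 100 UMIs, were Notum (Pearson r of log2(CPM + 1) 0.96), Lmo2 (0.95), and Gm32401 (0.94). NOTUM removes the lipid from WNT proteins, and LMO2 is a LIM-domain transcriptional cofactor. For Sat1 they were Dcaf17 (0.98) and the ribosomal protein genes Rplp0 (0.94) and Rpl29 (0.94), and for Amd1 Galnt1 (0.96), Sgms1 (0.93), and Zfp444 (0.92). For Sms they were Myef2 (0.90), Galk1 (0.87), and Ung (0.85), for Azin1 Arpc2 (0.92), Ethe1 (0.90), and Map7d1 (0.89), and for Oaz1 Mrps24 (0.89), Ndufb6 (0.88), and Hint1 (0.87). For Oaz2 they were Krtap17-1 (0.91), Elmo1 (0.91), and Mtmr11 (0.90), and the closest to Srm, Tnfaip3, reached only 0.73. The values of a library share its depth and free RNA, so these correlations are descriptions.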

How the data were processed

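The authors deposited raw counts of UMIs per gene and barcode, empty droplets included, made with Cell Ranger 7.1.0 per the file headers, with mm10 named in the submitters' processing notes. Whether intronic reads were counted is not given in the sources used here. Cells were kept at 2000 to 60000 UMIs and 1000 to 8000 detected genes. The mitochondrial share could reach 20% and the hemoglobin share 1%, and ribosomal shares outside percentiles 5 to 99 were removed. A cell took the class of the marker list with the highest score (mean standardized log level) where the score was at least 0.5, led the next list by 0.25, and at least 2 markers had a UMI. The score rule was set after the data had been seen, and the members and lists were chosen with earlier results of these data known. Fibroblast, melanocyte, immune, and endothelial gates were left out. Doublets were kept, except in an alternative without the 5% highest Scrublet scores.

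UMIs were summed per class and library, and log2 ratios were taken after adding 0.5 UMIs, for genes with at least 100 UMIs over both sums. Named genes are the 8 members, Padi4, genes of a list of 35 that were past 0.5 or stand next to a member in the pathway, and the 3 most similar genes per member. Positions came from GENCODE vM21. The ratio was tested on simulated data. Scanpy 1.11.5 and SciPy 1.17.1 were used.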

Additional observations from a re-analysis of the deposited data

How the results depend on the processing

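No paired analysis was possible because each genotype has 1 library. For the same reason no replicate could be left out. Other settings tried were a lower limit of 1000 or of 4000 UMIs for a cell, stricter gates, Leiden clusters, cells thinned to 2000 UMIs, subtraction of free RNA, removal of high doublet scores, CPM without mitochondrial and ribosomal protein genes, ratios centered on the median, the Scanpy fold change, and Xist-only cells. The count of genes past 0.5 between the libraries over all epithelial cells was 0 under each of these 11. The count of 10 pairs of gene and class became 4 of 94 with Leiden clusters, 2 of 44 with thinned cells, 5 of 71 with Xist-only cells, and 3 of 61 with a minimum of 500 UMIs, where fewer pairs could be compared. The count of 2 genes below -0.5 from matrix to shaft was 1 in the WT and 1 in the cKO library with thinned cells, where fewer UMIs left fewer genes to compare. It was 3 in the WT library, with Oaz1 as the third, under stricter gates, free RNA subtraction, removal of high doublet scores, the Scanpy fold change, and Xist-only cells. The ratios of Amd1 and Sms were below -0.5 under all alternatives in both libraries. Of 206 values of 19 ratios past 0.5, none changed sign, and 200 were still past 0.5. These ratios were of Med-like over ORS-like cells, of shaft-like over matrix-like cells, and of Odc1 between the libraries in Med-like and IFE-like cells. The other pairs of gene and class past 0.5 between the libraries were not among them. Of all 470 values of 43 ratios, past 0.5 or not, 98 fell outside the counting interval of the main setting. The Odc1 ratio between the libraries in IFE-like cells ran from -4.14 with thinned cells to -0.26 with Leiden clusters. In small classes the depth limits the ratios, as for Amd1 in shaft-like cells with 15 and 17 UMIs.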
